A study of Homo sapiens with 3 samples.

Results

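The 58 genes described here encode ribosome biogenesis factors, the nucleolar proteins that make, modify, cut and fold ribosomal RNA and load it with ribosomal proteins. They were chosen by name from textbook roles in ribosome assembly, with earlier results of these data known. The identifiers of 58 of the 58037 genes in the deposited table were matched to them. By role, 3 are core proteins of box C/D and 4 of box H/ACA small nucleolar ribonucleoprotein particles (snoRNPs), 5 are nucleolar chaperones and multifunctional proteins, 20 act on the small and 20 on the large ribosomal subunit, and 6 belong to RNA polymerase I transcription. Bulk RNA was sequenced from RWPE1 cells, an immortalized line of non-malignant human prostate epithelium, in 3 libraries with 1 library per condition. The labels give the genotypes OLFM4-wild type, OLFM4-knockout and OLFM4-active, where OLFM4 encodes olfactomedin 4, a secreted glycoprotein. The study made its knockout cells as GFP reporter clones with plasmids for a Cas9 double nickase against OLFM4 and a repair plasmid, under puromycin selection, and its methods also name OLFM4 activation plasmids, for the reporter cells of wild-type OLFM4. How the cells behind the library labelled OLFM4-active relate to those is not given in the sources used here, a clone and its genotype cannot be told apart, and RNA was taken from cells sorted for GFP. RNA was depleted of ribosomal RNA and read as stranded pairs.

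Ribosome assembly starts in the nucleolus, where RNA polymerase I copies the ribosomal DNA into a long precursor. Guide RNAs in box C/D particles direct ribose methylation and those in box H/ACA particles direct pseudouridylation of that precursor, and the U3 particle nucleates the small subunit processome that folds and cleaves it. Separate sets of helicases, GTPases and scaffold proteins then build the precursors of the small and large subunits, and many of these genes are textbook targets of the transcription factor MYC.

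The libraries held 16309906 counts (OLFM4-wild), 58837147 counts (OLFM4-knockout) and 23224216 counts (labelled OLFM4-active). Levels are given as CPM, the usual unit of depth-scaled counts, after scaling of library sizes with TMM factors, which assume that most genes do not differ between libraries. A log2 fold change is the difference of log2 CPM with 0.5 counts added to each count, and its range in brackets is a 95% Clopper-Pearson interval that covers counting error only. The spread between cultures of 1 condition was not measured, no test between conditions could be made, and no p-value is given. The library labelled OLFM4-active is called the active-labelled library below. OLFM4 itself stood at 11.8 CPM in the OLFM4-wild, 2.55 CPM in the OLFM4-knockout and 0.670 CPM in the active-labelled library, on 214, 131 and 16 counts, so that it was lowest in the library whose label names activation. Its log2 fold change was -2.20 (-2.53 to -1.89) in the knockout and -4.10 (-4.97 to -3.40) in the active-labelled library against OLFM4-wild. The 5 basal epithelial markers tested, KRT5 and TP63 among them, were all above 1 CPM in each library, with sums of 23484, 50623 and 27712 CPM in the order OLFM4-wild, OLFM4-knockout and active-labelled. Of 5 luminal markers 3 averaged 1 CPM or more, with sums of 461, 424 and 306 CPM for the list. Among them the keratin KRT8 was at 282, 231 and 146 CPM, with log2 fold changes of -0.29 (-0.34 to -0.24) in the knockout and -0.95 (-1.01 to -0.88) in the active-labelled library against OLFM4-wild, KRT18 was at 177, 191 and 157 CPM, and KLK3 was at or near 0. The part of these marker levels in the results below was not tested. All 4 leukocyte and all 3 endothelial markers lay under 1 CPM, and 2 of 5 fibroblast and muscle markers, COL1A1 and ACTA2, were above it, with sums of 33.0, 27.7 and 22.9 CPM for the list.

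Promoter sequence shows a feature that the choice of genes did not use. RefSeq (GRCh38.p14) gave windows of 250 bases before to 50 bases after a RefSeq start for 50 of the 58 genes. Some genes had more than 1 start, with 61 windows in all for these 50, and a gene was counted if any of its windows matched. Such a start can lie inside the annotated gene, as in DDX21 and PES1. Of these 50 genes, 21 (42%) held the palindrome CACGTG, the E-box form that MYC with MAX, and other factors such as USF1, can bind. The same letters stood in 8.77% of all 27305 genes with such windows and in 12.7% of 10268 protein-coding genes measured here. The 6 windows below run from 120 bases before to 30 bases after the start and are printed 5′ to 3′ on the strand of the gene, with the palindrome in capitals; they show 1 or 2 genes of each role in which it occurred and come from chr19:39846350-39846499 (- strand), chr15:34343107-34343256 (- strand), chr10:68956527-68956676 (+ strand), chr12:101279985-101280134 (+ strand), chr3:51941875-51942024 (- strand) and chr1:19251685-19251834 (+ strand).
FBL: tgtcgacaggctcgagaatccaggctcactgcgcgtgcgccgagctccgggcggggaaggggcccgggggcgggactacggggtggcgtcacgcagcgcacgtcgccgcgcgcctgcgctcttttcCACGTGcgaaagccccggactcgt
NOP10: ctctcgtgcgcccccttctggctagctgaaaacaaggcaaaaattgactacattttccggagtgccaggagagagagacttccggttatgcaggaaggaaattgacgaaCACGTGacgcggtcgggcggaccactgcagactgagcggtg
DDX21: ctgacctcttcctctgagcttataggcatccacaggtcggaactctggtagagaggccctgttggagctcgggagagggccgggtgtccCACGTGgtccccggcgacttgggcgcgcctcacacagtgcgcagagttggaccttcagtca
UTP20: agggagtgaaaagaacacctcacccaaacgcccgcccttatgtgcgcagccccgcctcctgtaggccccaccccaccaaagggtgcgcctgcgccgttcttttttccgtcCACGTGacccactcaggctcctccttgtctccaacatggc
RRP9: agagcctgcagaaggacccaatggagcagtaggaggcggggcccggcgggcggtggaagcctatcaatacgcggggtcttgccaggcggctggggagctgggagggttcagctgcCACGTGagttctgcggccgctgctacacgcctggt
MRTO4: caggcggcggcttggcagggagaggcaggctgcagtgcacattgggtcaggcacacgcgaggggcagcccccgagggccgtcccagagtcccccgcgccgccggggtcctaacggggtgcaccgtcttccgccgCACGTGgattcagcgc

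Counting from 0 at the RefSeq start of each window, with upstream positions negative, the palindrome began at 6 in FBL, -11 in NOP10, -31 in DDX21, -10 in UTP20, -5 in RRP9 and 14 in MRTO4. Over the 21 genes there were 24 matches, and 20 of them began between -31 and 42, with a median of 11. The other 4 lay farther upstream, and UTP14A was the gene with no match near its start. Within 100 bases before to 50 bases after the start, 20 of 50 genes (40%) held the palindrome. The share was 5.37% of all genes with windows and 7.98% of the protein-coding genes measured here.

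**Figure D1:**
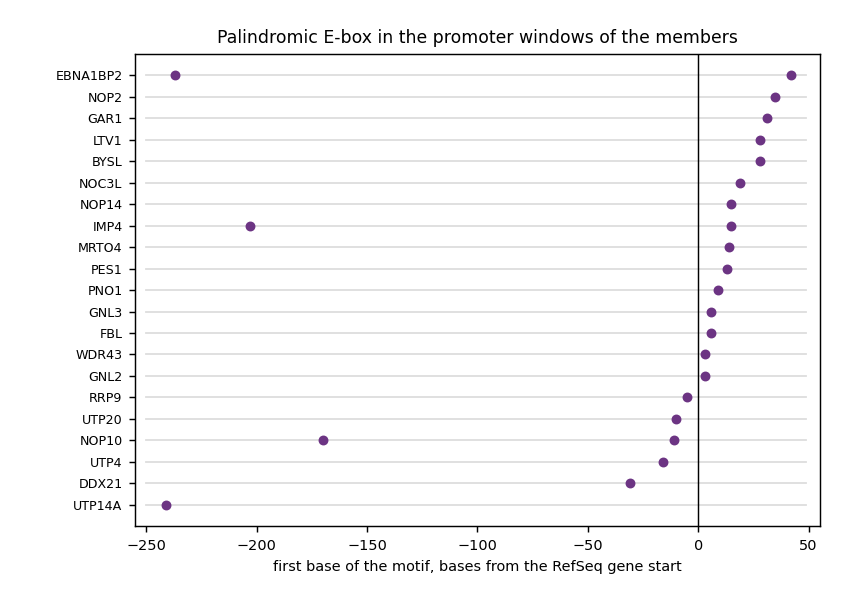
Position of each CACGTG match in the 21 members that hold one. The x axis gives the first base of the match in bases from the RefSeq start of its window (0, vertical line). Each grey line is the searched window of 250 bases before to 50 after, and points are matches, of which 20 of 24 lie between -31 and 42.

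By role, the palindrome was found in 1 of 2 box C/D genes with a window, 2 of 4 box H/ACA genes, 1 of 4 chaperones, 10 of 19 small subunit genes, 7 of 16 large subunit genes and 0 of 5 RNA polymerase I genes. The related letters CACGCG or CGCGTG stood in 34% of the members with windows, including 4 of the 5 RNA polymerase I genes, and in 13.5% of all genes with windows. CCGGAAG or CTTCCGG, a core that ETS factors bind, stood in 42% of the members with windows and 12.2% of all genes with windows. Among protein-coding genes measured here the shares were 22.0% for the related letters and 22.7% for this core. Both strands were searched in each case and none of the 3 motifs contains another, although their matches can share bases. The members' medians with and without the palindrome lay close together. In knockout against wild the median log2 fold change was 0.84 in the 21 members with it and 0.80 in the 29 without, and in active-labelled against wild it was 0.77 and 0.72. For other protein-coding genes the medians in knockout against wild were 0.13 with and 0.09 without. A match in these letters is a description and was not tested as a binding site.

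Every one of the 58 genes was measured well above the filter of a mean of 1 CPM that 16600 genes of the table passed, and 57 averaged 10 CPM or more, the exception being GAR1. The fewest counts behind any value were the 100 of GAR1 in the OLFM4-wild library, where its level was 5.50 CPM (95% interval 4.48 to 6.69), and the most were the 105053 of NPM1 in the OLFM4-knockout library. In the OLFM4-knockout library 57 of the 58 lay above their OLFM4-wild level (percent of all tested genes above it, 56.7%), and 45 had a log2 fold change above 0.5 (23.6% of all tested genes) and 21 above 1 (5.77%). None lay below -0.5 (18.6%). The median log2 fold change was 0.81, against 0.10 over all tested genes.

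Levels in the active-labelled library also lay above those of OLFM4-wild. All 58 members lay above the OLFM4-wild level (53.9% of all tested genes), 42 had a log2 fold change above 0.5 (15.7%) and 18 above 1 (3.78%), and the median was 0.76 against 0.05 over all tested genes. The counting interval lay wholly above 0 for 56 members in the knockout (42.4% of all tested genes) and for 56 in the active-labelled library (35.2%). OLFM4-wild was the lowest of the 3 libraries for 57 of the 58 (41.4% of all tested genes), NCL being the exception. Members above 0.5 in both comparisons numbered 34 (9.32%). Both comparisons use the same single OLFM4-wild library, so a value particular to that library would move both alike.

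**Figure D2:**
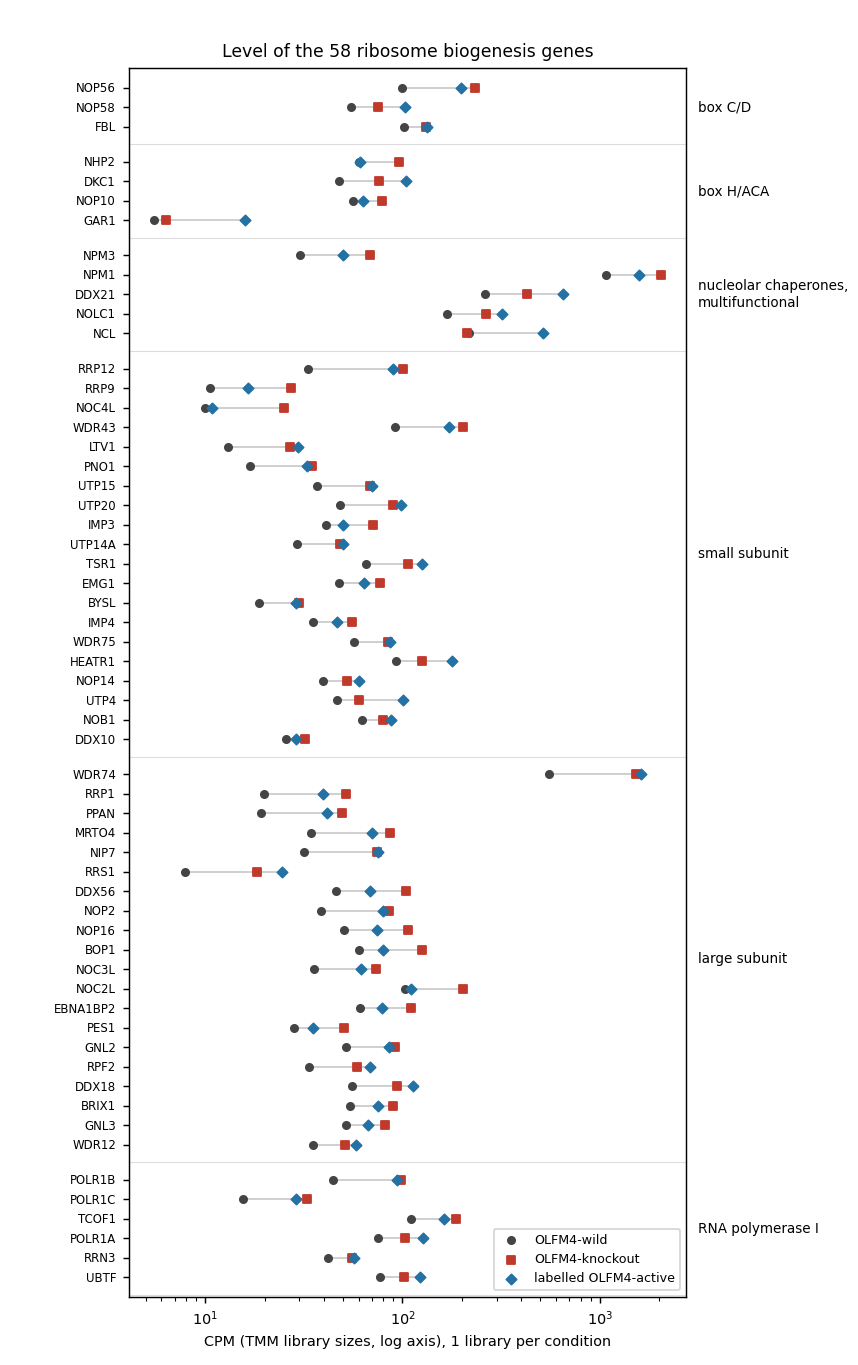
Level of each of the 58 genes in the 3 libraries, grouped by role. The x axis is CPM with TMM library sizes on a log scale; the dark circle (OLFM4-wild) is the leftmost symbol in 57 of the 58 rows.

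Set against each other, the knockout and the active-labelled library differed little in the median of the set: it was 0.08, against 0.08 over all tested genes. Of the members 32 were higher in the knockout (56.7% of all tested genes) and 26 lower; 9 were above 0.5 (18.6%) and 4 below -0.5 (13.7%). Single genes did differ by more than counting error, since the interval lay wholly above 0 for 29 members (39.8%) and wholly below for 19 (28.0%).

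The size of these differences depends on the scaling. With library totals in place of TMM factors (0.872 in the knockout and 1.11 in OLFM4-wild), every log2 fold change is lower by 0.35 in knockout against wild, by 0.11 in active-labelled against wild and by 0.24 in knockout against active-labelled. Members above 0 were then 54, 55 and 21, beside 32.5%, 44.1% and 36.6% of all tested genes; those above 0.5 were 26, 36 and 2, beside 8.93%, 11.2% and 8.09%. DDX10, GAR1 and NOB1 moved below 0 in knockout against wild, and NHP2, NOC2L and NOC4L in active-labelled against wild. Measured from the median of all tested genes, which moves with the scaling, the members' median was higher by 0.72 in knockout against wild and 0.72 in active-labelled against wild and by 0.00 in knockout against active-labelled, with either scaling. Summed over the 58 genes, the level was 4729 CPM in OLFM4-wild, 8824 in the knockout and 8749.7 in the active-labelled library, ratios of 1.87 and 1.85 to OLFM4-wild; with library totals the ratios were 1.46 and 1.71. NPM1 and WDR74 make up much of these sums, and without them the ratios with TMM scaling were 1.69 and 1.79.

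**Figure D3:**
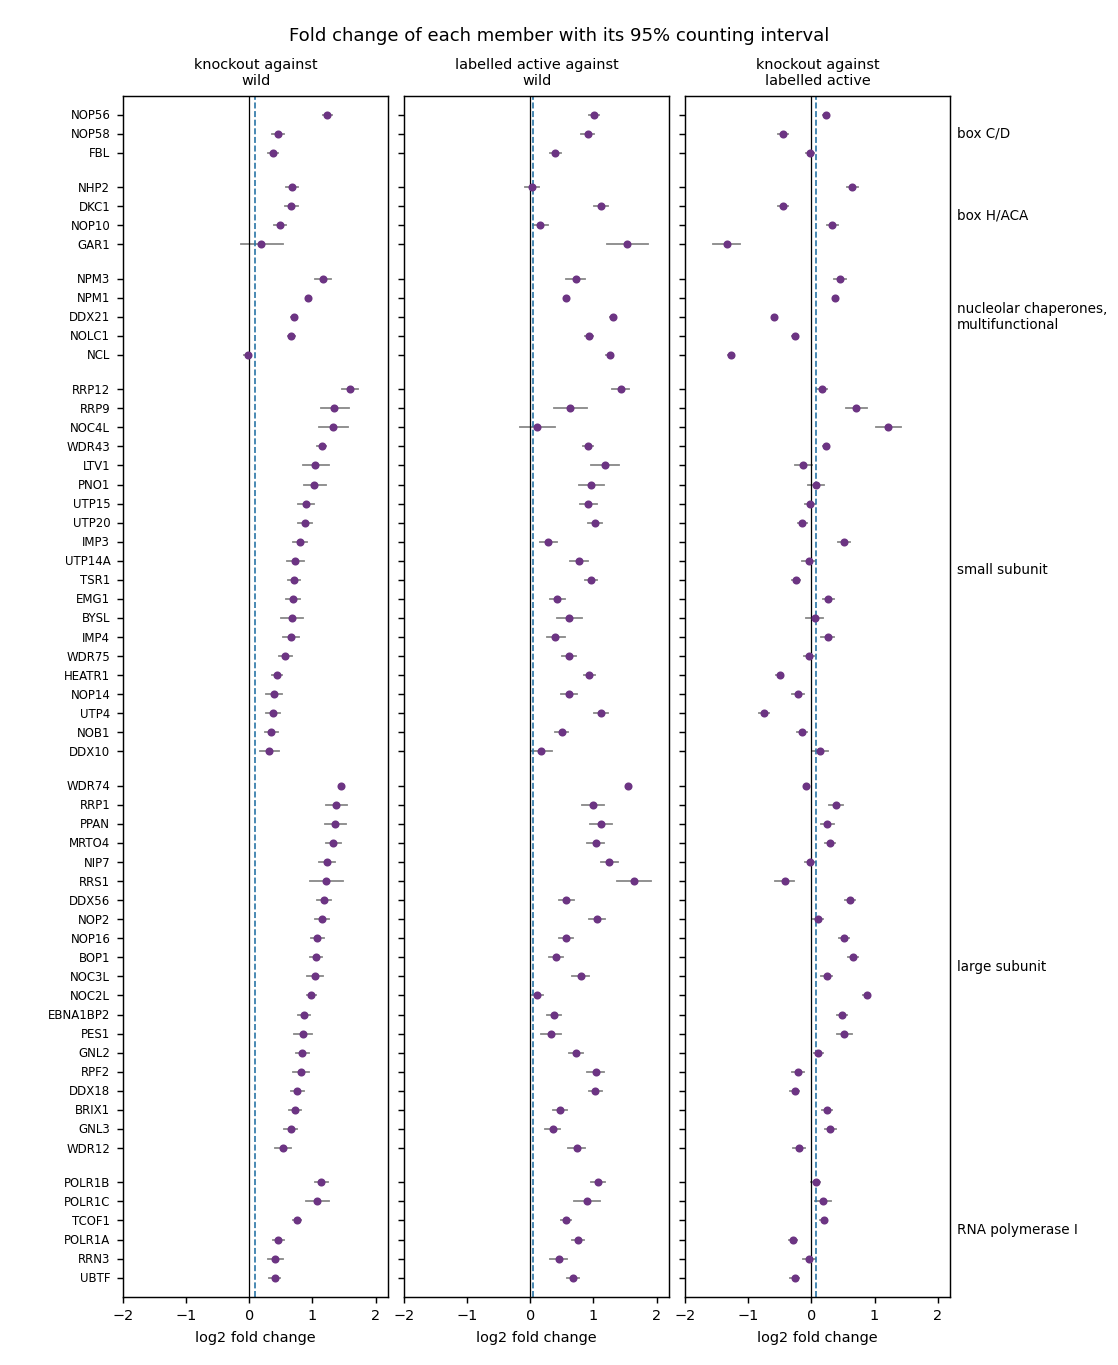
Log2 fold change of each member (point) with its 95% counting interval (line) in the 3 comparisons, TMM scaling; the dashed line marks the median of all tested genes and the solid line 0. Against OLFM4-wild, 57 of the points lie to the right of 0 in the knockout and 58 in the active-labelled library, and NCL, GAR1 and NOC4L lie farthest out in knockout against active-labelled.

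The members are taken by role below, and where 2 log2 fold changes of a gene follow its levels, the first is knockout against wild and the second active-labelled against wild. Box C/D snoRNPs carry fibrillarin (FBL), the methyltransferase, on the scaffold proteins NOP56 and NOP58. NOP56 stood at 99.01 CPM in the OLFM4-wild, 233 CPM in the OLFM4-knockout and 198 CPM in the active-labelled library. Its log2 fold change was 1.23 (1.16 to 1.31) in the knockout and 1.002 (0.92 to 1.08) in the active-labelled library against OLFM4-wild, the highest of the 3 genes in both. NOP58 stood at 54.8 CPM in the OLFM4-wild, 75.1 CPM in the OLFM4-knockout and 103 CPM in the active-labelled library. It was highest in the active-labelled library, with log2 fold changes of 0.45 (0.35 to 0.56) in the knockout and 0.91 (0.80 to 1.01) in the active-labelled library. FBL stood at 101 CPM in the OLFM4-wild, 132 CPM in the OLFM4-knockout and 134 CPM in the active-labelled library, nearly level in the last pair, with log2 fold changes of 0.38 (0.30 to 0.45) and 0.40 (0.32 to 0.48) against OLFM4-wild. The pair of scaffold proteins took opposite order in knockout against active-labelled, 0.23 (0.18 to 0.28) for NOP56 and -0.45 (-0.53 to -0.38) for NOP58, with TMM scaling; with library totals NOP56 was at -0.01 there.

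Box H/ACA snoRNPs hold the pseudouridine synthase dyskerin (DKC1) with NHP2, NOP10 and GAR1. DKC1 was measured at 47.9 CPM in the OLFM4-wild, 76.2 CPM in the OLFM4-knockout and 104 CPM in the active-labelled library, with log2 fold changes of 0.67 (0.56 to 0.78) and 1.12 (1.01 to 1.23). NHP2, an RNA-binding core protein, was at 60.04 CPM in the OLFM4-wild, 95.8 CPM in the OLFM4-knockout and 61.3 CPM in the active-labelled library. It was higher in the knockout by 0.67 (0.58 to 0.77), whereas its interval in the active-labelled library, 0.03 (-0.08 to 0.14), spanned 0. NOP10, a small protein that binds dyskerin, was at 56.5 CPM in the OLFM4-wild, 79.2 CPM in the OLFM4-knockout and 62.99 CPM in the active-labelled library, with log2 fold changes of 0.49 (0.39 to 0.59) and 0.16 (0.04 to 0.27). GAR1 (chromosome 4, 109815510 to 109824740, plus strand) had the lowest mean level of the 58 in CPM, at 5.50 CPM in the OLFM4-wild, 6.29 CPM in the OLFM4-knockout and 15.9 CPM in the active-labelled library. Its interval in the knockout, 0.19 (-0.13 to 0.53), spanned 0, while the active-labelled library was higher by 1.53 (1.21 to 1.87). In knockout against active-labelled, NHP2 at 0.65 (0.56 to 0.73) and NOP10 at 0.33 (0.24 to 0.42) lay above 0. DKC1 at -0.45 (-0.52 to -0.38) and GAR1 at -1.34 (-1.56 to -1.12) lay below, and these directions were the same with library totals.

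Among the chaperones and multifunctional proteins, nucleophosmin (NPM1), a histone and ribosome chaperone, had the most counts of all members in OLFM4-wild and OLFM4-knockout, while WDR74, described with the large subunit, had more in the active-labelled library. NPM1 was at 1072 CPM in the OLFM4-wild, 2046 CPM in the OLFM4-knockout and 1585 CPM in the active-labelled library. Its log2 fold change was 0.93 (0.91 to 0.96) in the knockout and 0.56 (0.54 to 0.59) in the active-labelled library. The annotation holds 49 pseudogenes named for NPM1, and a read that matches a copy equally well is not counted as unique, so its level is uncertain. NPM3, a smaller relative, was at 30.3 CPM in the OLFM4-wild, 68.2 CPM in the OLFM4-knockout and 49.9 CPM in the active-labelled library, with log2 fold changes of 1.17 (1.04 to 1.30) and 0.72 (0.57 to 0.87). DDX21, a DEAD-box helicase of the nucleolus, was at 263 CPM in the OLFM4-wild, 430.1 CPM in the OLFM4-knockout and 651 CPM in the active-labelled library, highest in the active-labelled library. Its log2 fold changes were 0.71 (0.67 to 0.76) and 1.31 (1.26 to 1.36). NOLC1, a phosphoprotein that accompanies snoRNPs, was at 168 CPM in the OLFM4-wild, 266 CPM in the OLFM4-knockout and 319.8 CPM in the active-labelled library, with 0.67 (0.61 to 0.72) and 0.93 (0.87 to 0.99). Nucleolin (NCL, chromosome 2, 231453531 to 231483641, minus strand), which binds the ribosomal RNA precursor, stood apart at 217 CPM in the OLFM4-wild, 213 CPM in the OLFM4-knockout and 518 CPM in the active-labelled library. Its knockout and OLFM4-wild levels were alike within counting error, -0.02 (-0.08 to 0.03), and it was higher in the active-labelled library by 1.26 (1.21 to 1.31). Knockout against active-labelled gave -1.28 (-1.32 to -1.24), beside -0.60 (-0.63 to -0.57) for DDX21 and 0.37 (0.35 to 0.39) for NPM1. With library totals the knockout level of NCL lay below that of OLFM4-wild, at -0.38. Exons of NCL also hold SNORA75 and SNORD20, which were at 3.26 CPM or less.

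All 20 small subunit genes lay above OLFM4-wild in the knockout (56.7% of all tested genes) and in the active-labelled library (53.9%), with medians of 0.72 and 0.70. In the knockout 15 lay above 0.5 (23.6%) and in the active-labelled library 14 (15.7%). With library totals 18 and 19 of the 20 lay above 0 (32.5% and 44.1% of all tested genes). Above 0.5 there were then 8 and 12 of the 20 (8.93% and 11.2%), and the medians of the 20 were 0.37 and 0.59. RRP12, a repeat protein needed for export and late maturation of the precursor of the small subunit, had the highest fold change of all 58 in the knockout, at 33.3 CPM in the OLFM4-wild, 101 CPM in the OLFM4-knockout and 89.7 CPM in the active-labelled library. Its log2 fold changes were 1.59 (1.47 to 1.72) and 1.43 (1.30 to 1.56). RRP9, the U3-specific protein whose E-box window is printed above, was at 10.6 CPM in the OLFM4-wild, 27.1 CPM in the OLFM4-knockout and 16.5 CPM in the active-labelled library, with 1.35 (1.13 to 1.57) and 0.63 (0.38 to 0.89). NOC4L (chromosome 12, 132144457 to 132152473, plus strand), a partner of NOP14 in the processome, was at 10.02 CPM in the OLFM4-wild, 25.1 CPM in the OLFM4-knockout and 10.8 CPM in the active-labelled library. The knockout stood alone in this gene: it was higher than OLFM4-wild by 1.32 (1.10 to 1.56) and than the active-labelled library by 1.22 (1.02 to 1.42), while active-labelled against wild, 0.11 (-0.17 to 0.39), spanned 0. WDR43 of the UTP-A subcomplex, which couples transcription of ribosomal DNA to processing, was at 91.5 CPM in the OLFM4-wild, 202 CPM in the OLFM4-knockout and 173 CPM in the active-labelled library. Its log2 fold changes were 1.15 (1.07 to 1.22) and 0.92 (0.83 to 1.0). LTV1, a late assembly and export factor, was at 12.99 CPM in the OLFM4-wild, 26.9 CPM in the OLFM4-knockout and 29.5 CPM in the active-labelled library, with 1.05 (0.85 to 1.26) and 1.18 (0.97 to 1.40); it shares exonic bases with unnamed genes on its strand.

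The 2 smallest fold changes of the small subunit in the knockout belonged to DDX10, a DEAD-box helicase, and NOB1, the endonuclease that makes the mature end of 18S ribosomal RNA. DDX10 stood at 25.6 CPM in the OLFM4-wild, 31.9 CPM in the OLFM4-knockout and 28.9 CPM in the active-labelled library, with 0.32 (0.17 to 0.47) and 0.18 (0.00 to 0.35). NOB1 stood at 62.1 CPM in the OLFM4-wild, 79.3 CPM in the OLFM4-knockout and 87.7 CPM in the active-labelled library, with 0.35 (0.26 to 0.45) and 0.50 (0.39 to 0.60). The remaining 13 had log2 fold changes between 0.37 (UTP4) and 1.03 (PNO1) in the knockout and between 0.28 (IMP3) and 1.12 (UTP4) in the active-labelled library. In each library 10 of the 13 lay above 0.5 (23.6% and 15.7% of all tested genes). The UTP-A proteins (UTP4, UTP15, WDR43, WDR75 and HEATR1) had a median of 0.57 in the knockout and 0.92 in the active-labelled library. HEATR1, at 92.6 CPM in the OLFM4-wild, 125 CPM in the OLFM4-knockout and 177 CPM in the active-labelled library, and UTP4, at 46.4 CPM in the OLFM4-wild, 60.1 CPM in the OLFM4-knockout and 101 CPM in the active-labelled library, were lower in the knockout than in the active-labelled library beyond counting error, with -0.50 (-0.56 to -0.44) and -0.75 (-0.82 to -0.67) in that comparison. UTP15 at -0.02 (-0.11 to 0.06) and WDR75 at -0.04 (-0.11 to 0.04) were within counting error of 0 there and WDR43 was at 0.23 (0.18 to 0.28), with TMM scaling. With library totals all 5 lay below 0, as did 10520 of the 16600 tested genes. RRP9, IMP3 and IMP4, the last pair being partners of MPP10 in the U3 particle, had the opposite order, with a median of 0.80 in the knockout and 0.40 in the active-labelled library, and all 3 were higher in the knockout than in the active-labelled library, by 0.26 to 0.71 with TMM scaling and by 0.02 to 0.48 with library totals. The late factors RRP12, LTV1, PNO1, TSR1, BYSL and NOB1 had medians of 0.87 and 0.96.

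The large subunit group had the highest median of the 6 roles in the knockout. All 20 genes lay above 0.5 there (23.6% of all tested genes) and 11 above 1 (5.77%), with a median of 1.05. In the active-labelled library 14 of 20 lay above 0.5 (15.7%), with a median of 0.76. With library totals 13 of the 20 lay above 0.5 (8.93%) and 3 above 1 (368 of 16600 tested genes) in the knockout, with a median of 0.70. In the active-labelled library 12 then lay above 0.5 (11.2%), with a median of 0.65. Of the 20, 14 had their highest level in the knockout (41.9% of all tested genes) and 6 in the active-labelled library (27.5%) with TMM scaling. WDR74, a repeat protein of early precursors, was at 553 CPM in the OLFM4-wild, 1520.2 CPM in the OLFM4-knockout and 1619 CPM in the active-labelled library, but another gene on its strand held nearly the same counts. Its exons contain RNU2-2P, a U2 small nuclear RNA gene (chromosome 11, 62841619 to 62841809, all of it within exons of WDR74), whose counts came to 93.3, 94.7 and 96.1 for every 100 counts of WDR74 in the OLFM4-wild, OLFM4-knockout and active-labelled libraries. The counts of WDR74 less those of RNU2-2P gave 36.8, 81.1 and 63.4 CPM, with log2 fold changes of 1.14 in the knockout and 0.78 in the active-labelled library in place of 1.46 (1.43 to 1.49) and 1.55 (1.52 to 1.58).

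RRP1, a nucleolar protein of early 60S particles, was at 19.8 CPM in the OLFM4-wild, 51.6 CPM in the OLFM4-knockout and 39.3 CPM in the active-labelled library, with log2 fold changes of 1.38 (1.22 to 1.54) and 0.99 (0.81 to 1.17). PPAN, a factor for 27S precursor processing, was at 19.2 CPM in the OLFM4-wild, 49.5 CPM in the OLFM4-knockout and 41.6 CPM in the active-labelled library. Its log2 fold changes were 1.36 (1.20 to 1.53) and 1.11 (0.94 to 1.30); the readthrough gene PPAN-P2RY11, which overlaps it, was at 21.4, 51.6 and 43.9 CPM, so that their reads cannot be told apart. MRTO4, which holds the place of the ribosomal stalk protein until late assembly, was at 34.3 CPM in the OLFM4-wild, 86.3 CPM in the OLFM4-knockout and 70.2 CPM in the active-labelled library. Its log2 fold changes were 1.33 (1.21 to 1.46) and 1.03 (0.90 to 1.17). NIP7, an RNA-binding factor, was at 31.6 CPM in the OLFM4-wild, 74.5 CPM in the OLFM4-knockout and 75.5 CPM in the active-labelled library, level between the knockout and the active-labelled library, with 1.23 (1.11 to 1.36) and 1.25 (1.12 to 1.39) against OLFM4-wild. The smallest knockout fold changes were those of WDR12 and GNL3. WDR12, which with PES1 and BOP1 forms the PeBoW complex, was at 35.1 CPM in the OLFM4-wild, 50.9 CPM in the OLFM4-knockout and 58.4 CPM in the active-labelled library, with 0.53 (0.41 to 0.66) and 0.73 (0.60 to 0.87). GNL3, the GTPase also called nucleostemin, was at 52.01 CPM in the OLFM4-wild, 81.9 CPM in the OLFM4-knockout and 66.5 CPM in the active-labelled library, with 0.65 (0.55 to 0.76) and 0.35 (0.24 to 0.47).

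The remaining 13 large subunit genes had log2 fold changes of 0.73 (BRIX1) to 1.22 (RRS1) in the knockout. In the active-labelled library they reached from 0.11 (NOC2L) to 1.64 (RRS1), the highest fold change of all 58 there, and 8 of the 13 lay above 0.5 (15.7% of all tested genes). RRS1, which with RPF2 brings the 5S particle to the precursor, was at 7.87 CPM in the OLFM4-wild, 18.4 CPM in the OLFM4-knockout and 24.6 CPM in the active-labelled library, and RPF2 at 33.4 CPM in the OLFM4-wild, 59.2 CPM in the OLFM4-knockout and 68.6 CPM in the active-labelled library. Both were lower in the knockout than in the active-labelled library, with log2 fold changes of -0.42 (-0.57 to -0.27) and -0.21 (-0.30 to -0.13). NOC2L and NOC3L, partners in one complex of intranuclear transport, parted: NOC2L was at 103 CPM in the OLFM4-wild, 203 CPM in the OLFM4-knockout and 111 CPM in the active-labelled library, and NOC3L at 35.5 CPM in the OLFM4-wild, 73.1 CPM in the OLFM4-knockout and 61.7 CPM in the active-labelled library. In active-labelled against wild NOC2L was at 0.11 (0.02 to 0.20) and NOC3L at 0.80 (0.66 to 0.93), while in the knockout they were at 0.98 (0.91 to 1.05) and 1.04 (0.92 to 1.17). PES1 and BOP1 of the PeBoW complex were higher in the knockout than in the active-labelled library, 0.52 (0.41 to 0.64) and 0.66 (0.58 to 0.73), and WDR12 was lower, -0.20 (-0.29 to -0.10). The canonical transcripts of NOC2L and NOC3L have a GC content of 59.8% and 37.7%. Those of PES1, BOP1 and WDR12 have 57.9%, 65.6% and 39.6%. The part of base composition in these differences within complexes was not tested.

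RNA polymerase I genes had medians of 0.61 in the knockout and 0.72 in the active-labelled library. All 6 lay above OLFM4-wild in both (56.7% and 53.9% of all tested genes). With library totals the medians of the 6 were 0.26 and 0.60. The largest subunit, POLR1A, was at 74.8 CPM in the OLFM4-wild, 103 CPM in the OLFM4-knockout and 127 CPM in the active-labelled library. Its log2 fold changes were 0.46 (0.38 to 0.55) and 0.76 (0.67 to 0.85). The second largest subunit, POLR1B, was at 44.6 CPM in the OLFM4-wild, 98.4 CPM in the OLFM4-knockout and 93.7 CPM in the active-labelled library, with 1.14 (1.03 to 1.25) and 1.07 (0.96 to 1.19). POLR1C, which RNA polymerase III also contains, was at 15.6 CPM in the OLFM4-wild, 32.9 CPM in the OLFM4-knockout and 28.9 CPM in the active-labelled library, with 1.08 (0.90 to 1.27) and 0.89 (0.69 to 1.10). UBTF, the factor that keeps ribosomal DNA open, was at 77.2 CPM in the OLFM4-wild, 102 CPM in the OLFM4-knockout and 123 CPM in the active-labelled library, with 0.41 (0.32 to 0.49) and 0.67 (0.58 to 0.77). RRN3, which brings the polymerase to the promoter, was at 41.8 CPM in the OLFM4-wild, 55.7 CPM in the OLFM4-knockout and 57.00 CPM in the active-labelled library, with 0.41 (0.30 to 0.53) and 0.45 (0.32 to 0.58). TCOF1, the treacle protein that acts with UBTF, was at 110.3 CPM in the OLFM4-wild, 186 CPM in the OLFM4-knockout and 163 CPM in the active-labelled library, with 0.76 (0.69 to 0.83) and 0.56 (0.48 to 0.64). The 3 factors were thus at 0.41 to 0.76 in the knockout, and the 3 subunits at 0.46 to 1.14. With library totals the knockout values of UBTF and RRN3 were 0.05 and 0.06.

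**Figure D4:**
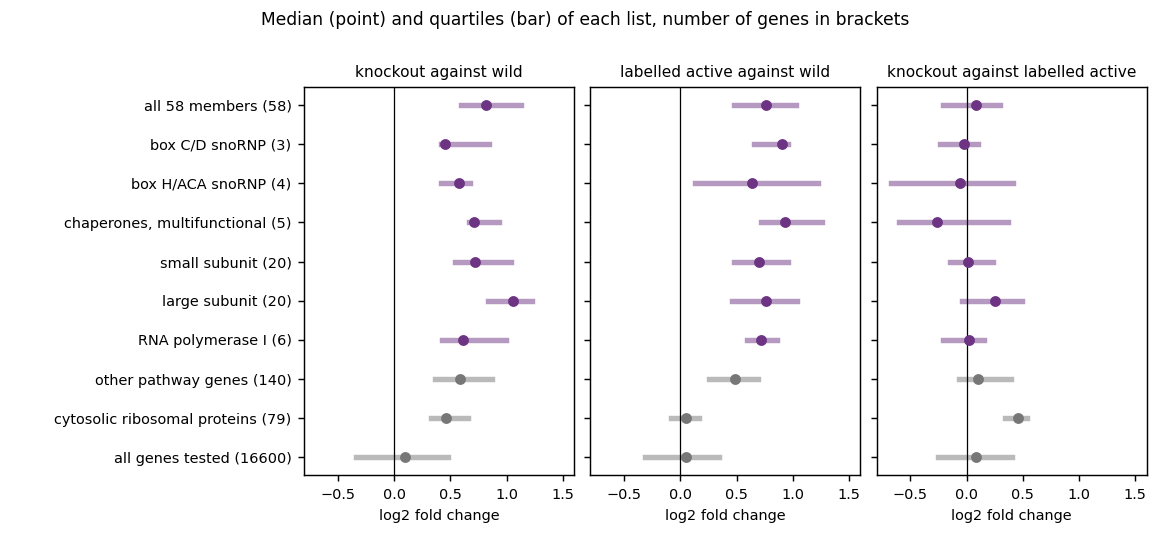
Median (point) and lower to upper quartile (bar) of log2 fold change, TMM scaling, for the 58 members, each role, the other pathway genes, the cytosolic ribosomal proteins and all tested genes. The large subunit median of 1.05 is the highest in knockout against wild, and the ribosomal proteins lie at 0.46 there and 0.05 in active-labelled against wild.

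Levels between genes can be compared only per length of transcript, and were taken as TPM on Ensembl canonical transcripts within the OLFM4-wild library. NPM1 was the most abundant member at 1237 TPM, followed by WDR74 at 691 TPM before the counts of RNU2-2P are taken off, NOP10 at 169.7 TPM, FBL at 137 TPM and NHP2 at 117 TPM. The median member was at 23.4 TPM and the lowest was WDR12 at 6.63 TPM. Per union exon length NPM1 was at 257 TPM and the lowest was DDX10 at 2.82 TPM, so that the order of the low members depends on the length used.

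Other genes of the pathway were taken from a list of 142, of which 141 were in the table and 140 averaged 1 CPM or more. In the knockout 137 of the 140 lay above OLFM4-wild (56.7% of all tested genes), 84 above 0.5 (23.6%) and 20 above 1 (5.77%), with a median of 0.58; in the active-labelled library 130 lay above OLFM4-wild (53.9%) and 65 above 0.5 (15.7%), with a median of 0.48. With library totals the knockout counts were 107 above 0 (32.5% of all tested genes), 38 above 0.5 (8.93%) and 8 above 1 (368 of the 16600 tested genes), with a median of 0.23. The active-labelled counts were then 125 above 0 (44.1%) and 46 above 0.5 (11.2%), with a median of 0.37. Both medians lay between those of the 58 members and of all tested genes. Among those averaging 10 CPM or more, the 5 highest in the knockout were RPP40, a subunit of RNase P and RNase MRP, at 1.71 (1.43 to 2.02), URB2 at 1.58 (1.44 to 1.73), the exosome subunit EXOSC4 at 1.57 (1.38 to 1.78), POP1 of RNase P and RNase MRP at 1.55 (1.37 to 1.74), and WDR3 of the processome at 1.51 (1.39 to 1.64). RPP40 was at 5.94, 19.6 and 21.97 CPM and EXOSC4 at 12.6, 37.5 and 18.3 CPM in OLFM4-wild, OLFM4-knockout and active-labelled order. The 3 lowest were ESF1 at -0.56 (-0.73 to -0.39), RBM28 at -0.48 (-0.61 to -0.35) and FCF1 at -0.10 (-0.24 to 0.05). ESF1 was at 23.00, 15.6 and 31.6 CPM, the only one of the 140 below -0.5 in the knockout with TMM scaling, and its active-labelled library lay above OLFM4-wild by 0.46 (0.28 to 0.63).

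The 79 cytosolic ribosomal protein genes, whose products are the cargo of the pathway, were set beside its factors. Their median was 0.46 in the knockout and 0.05 in the active-labelled library, with 39 and 1 above 0.5 (23.6% and 15.7% of all tested genes), and in knockout against active-labelled it was 0.45 with 28 above 0.5 (18.6%), where the 58 members had 0.08 and 9. With library totals these medians were 0.11, -0.07 and 0.22, with 1, 1 and 2 genes above 0.5 (8.93%, 11.2% and 8.09% of all tested genes). Relative to the median of all tested genes these ribosomal protein medians were 0.37, 0.00 and 0.38, against 0.72, 0.72 and 0.00 for the members. With TMM scaling, protein-coding genes outside the members with canonical transcripts under 1.5 kb had medians of 0.39, 0.03 and 0.39 in these comparisons. Ribosomal protein genes were not set apart from that bin, and the part of transcript length in their medians was not tested. MYC was at 274 CPM in the OLFM4-wild, 510.3 CPM in the OLFM4-knockout and 486 CPM in the active-labelled library, with 0.90 (0.85 to 0.94) and 0.83 (0.78 to 0.87) against OLFM4-wild and 0.07 (0.04 to 0.10) in knockout against active-labelled, which was below 0 with library totals.

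RNA components of the machinery were read next to their proteins. The U3 gene SNORD3A was at 614 CPM in the OLFM4-wild, 1942 CPM in the OLFM4-knockout and 1409 CPM in the active-labelled library, and RMRP, the RNA of RNase MRP, at 4269 CPM in the OLFM4-wild, 8427 CPM in the OLFM4-knockout and 4668 CPM in the active-labelled library. RPPH1, the RNA of RNase P, was at 5519 CPM in the OLFM4-wild, 13317 CPM in the OLFM4-knockout and 7524 CPM in the active-labelled library. SNORD3A was thus above OLFM4-wild by 1.66 (1.63 to 1.69) and 1.20 (1.17 to 1.23), and RMRP by 0.98 (0.97 to 0.99) and 0.13 (0.12 to 0.14), with TMM scaling. With library totals these are lower by 0.35 in the knockout and by 0.11 in the active-labelled library, the latter close to the whole RMRP value there. Copies of U3 share sequence, and their split by unique mapping is uncertain. The members host 28 annotated small nucleolar RNAs in 9 genes. None of the 28 reached a mean of 10 CPM and 5 reached 1 CPM. Their counts summed to 163, 1123 and 505, of which SNORD86, inside NOP56, held 36, 443 and 144. The sums gave log2 fold changes of 1.29 in the knockout and 1.24 in the active-labelled library, with both intervals wholly above 0. Some of the 28, SNORD86 among them, share bases with annotated exons of their host. Mature small nucleolar RNA and host RNA, unspliced or from such exons, cannot be told apart in these counts.

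Transcript length and base composition moved with the fold changes of all genes, so the members were set beside genes of like length. In knockout against wild, other protein-coding genes had a median of 0.39 for canonical transcripts under 1.5 kb and of -0.09 over 4 kb. The members in these bins were at 0.86 (n = 11) and 0.71 (n = 12), and at 1.03 (n = 21) and 0.74 (n = 14) in the bins between, where other genes had 0.26 and 0.12. In active-labelled against wild the other genes lay between 0.03 and 0.06 in all 4 bins and the members between 0.56 and 0.93. In knockout against active-labelled the members were at 0.37 beside 0.39 under 1.5 kb and at -0.17 beside -0.12 over 4 kb. In the bins between they were at 0.23 beside 0.25 and at -0.04 beside 0.12. By GC content, the members with more than 58% (n = 9) had a median of 1.35 in knockout against wild beside 0.25 for other genes, and those under 42% (n = 16) had 0.79 beside 0.03. The GC bins of knockout against active-labelled ranged from 0.39 beside 0.39 above 58% to -0.26 beside 0.03 at 46 to 50% (n = 10). By level, members of 30 to 100 CPM (n = 36) had 0.81 beside 0.15 in knockout against wild, and 0.14 beside 0.06 in knockout against active-labelled. The part of length and composition in the differences between knockout and active-labelled for single genes was not tested.

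**Figure D5:**
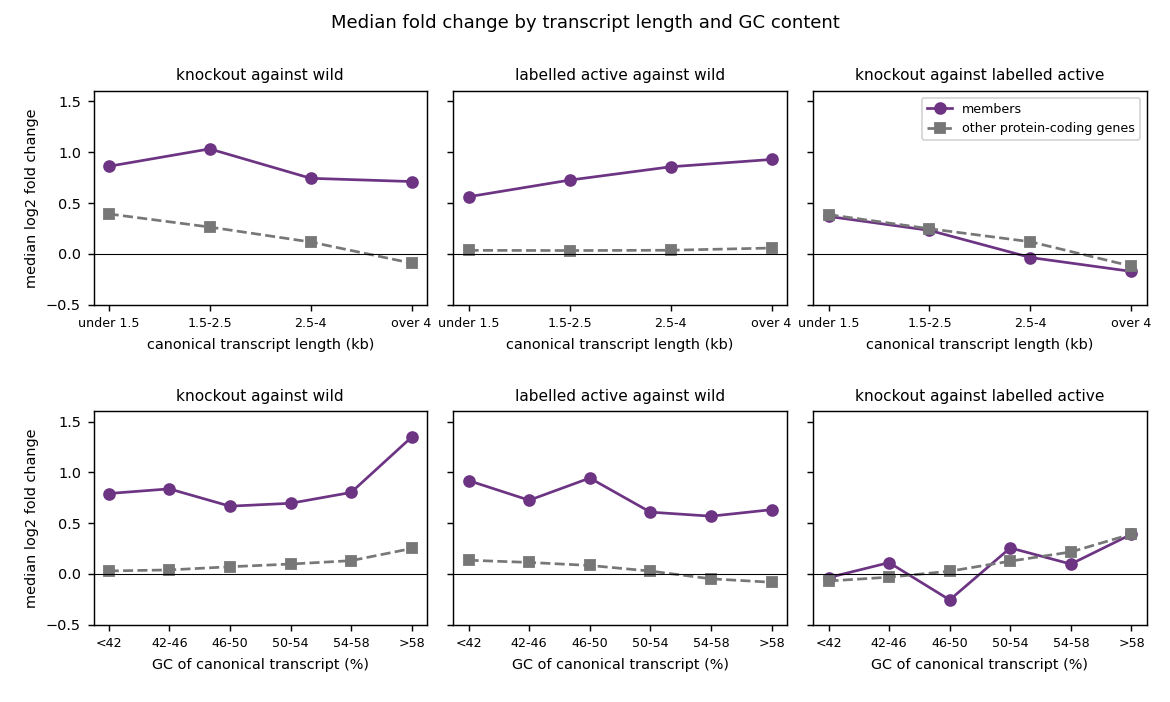
Median log2 fold change of the members (circles) and other protein-coding genes (squares) in bins of canonical transcript length (top, kb) and of its GC content (bottom, %), for the 3 comparisons, TMM scaling. The members lie above the other genes in every bin of both comparisons against OLFM4-wild, and near them in the length bins of knockout against active-labelled, from 0.37 to -0.17.

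Overlapping genes and copies limit single values. Of the 58, 14 share exonic bases on their own strand with another gene and 16 have pseudogenes named for them, 27 in all with either. Among the 31 with neither, 31 lay above OLFM4-wild in the knockout (56.7% of all tested genes) and 31 in the active-labelled library (53.9%). Of them 23 and 26 lay above 0.5 (23.6% and 15.7%). In bulk RNA of sorted cells, more cells that make a transcript and more transcript per cell cannot be told apart.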

How the data were processed

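Per the labels and the methods of the study, the authors trimmed reads with cutadapt, aligned them to GRCh38 with HISAT2 and counted unique, reversely stranded read pairs per gene with featureCounts; the deposited values are raw counts of 58037 genes in 3 libraries of 1 sample each. Unique counting leaves out reads shared with copies and leaves genes that overlap on 1 strand uncertain.

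The members and lists were chosen with earlier results of these data known. Identifiers were matched in GENCODE release 44, which also gave positions, exons and canonical transcripts. TMM factors came from edgeR 4.0.16 and log2 CPM were computed as in voom of limma 3.58.1 (R 4.3.3), with an offset of 0.5 counts. Intervals are 95% Clopper-Pearson, conditional on the sum of both counts for a fold change, and cover counting error only; pairs were not counted by molecular identifiers. The 16600 genes that averaged 1 CPM or more served as background, and a gene was called with a log2 fold change above 0.5. With 1 library per condition there was no test. Intervals and summaries were made with scipy 1.17.1, pandas 2.3.3 and numpy 2.4.6 in Python 3.11.15, and plots with matplotlib 3.10.9. Fold changes and intervals were tried on counts simulated with known fold changes and given library sizes, which covers neither the scaling nor the spread between cultures.

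All members may be named; values in all libraries are given for each snoRNP, chaperone and RNA polymerase I gene and, in the subunit groups, for the 5 largest and 2 smallest knockout against wild fold changes, besides OLFM4, MYC and the 5 largest and 3 smallest of the other pathway genes. UTP4, HEATR1, NOC2L, NOC3L, RRS1, RPF2, PES1, BOP1 and the RNA components were singled out after their values were seen. Alternatives were library totals, size factors of DESeq2 1.42.0, upper quartile factors, TMM over protein-coding genes, library sizes without the 10 most abundant genes, offsets of 1 and 5 counts, other filters, thinning to the smallest library and leaving out members with copies or overlaps. Canonical length, GC bins and the values without WDR74 or NPM1 were added after seeing the data. Protein sequences were not used here.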

Additional observations from a re-analysis of the deposited data

How the results depend on the processing

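Directions against OLFM4-wild held for the members' median under every scaling, offset, filter and thinning tried, with ranges of 0.46 to 0.82 in the knockout and 0.65 to 0.79 in the active-labelled library. The median of knockout against active-labelled changed sign, as did single members near 0. With library totals the knockout against wild median was 0.46 (-0.26 over all tested genes). In that comparison 26 members lay above 0.5 and 4 above 1 (1483 and 368 of the 16600 tested genes). Active-labelled against wild had 10 above 1 (480 of 16600). Knockout against active-labelled had a median of -0.15 (-0.16 over all tested genes), with 21 above 0, 2 above 0.5, 0 above 1 and 12 below -0.5. Over the 16600 tested genes these last counts were 6080, 1343, 212 and 4098. Upper quartile factors gave knockout against active-labelled a median of -0.021 and 8 members below -0.5, and TMM over protein-coding genes gave 7 below -0.5. The share of all tested genes below -0.5 was not counted under these settings. Without the members that have a copy or an overlap, 31 remained by construction. In knockout against wild 31 lay above 0, 23 above 0.5 and 13 above 1 (56.7%, 23.6% and 5.77% of all tested genes). In active-labelled against wild these counts were 31, 26 and 7 (53.9%, 15.7% and 3.78%). In knockout against active-labelled 17 lay above 0 and 4 above 0.5 (56.7% and 18.6%). DESeq2 size factors, the offsets and thinning kept each count over the 58 members within 1.5 times; thinning gave knockout against active-labelled a median of 0.04 in place of 0.08, and -0.08 in place of 0.01 for its small subunit genes. No paired analysis was possible because each condition has 1 library. Replicates could not be left out for the same reason. Depth sets the counting error, which is widest for GAR1. Thinning also moved the TMM factors, from 0.872 to 0.888 in the knockout and from 1.11 to 1.10 in OLFM4-wild.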
